A study of Caenorhabditis elegans with 6 samples.

Results

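Caenorhabditis elegans carries 5 genes named as flavin-containing monooxygenases, fmo-1 to fmo-5, and all of them were printed on the arrays of this series. They were found by matching the sequence names of the spots to gene symbols, without use of any measured value. Each gene had 1 oligonucleotide, so that 5 of 22490 C. elegans oligonucleotides and 5 of the 18999 features tested belonged to the family. fmo-1 (K08C7.2) and fmo-2 (K08C7.5) lie on chromosome IV and take their sequence names from the same clone, fmo-3 (Y39A1A.19) lies on chromosome III, and fmo-4 (F53F4.5) and fmo-5 (H24K24.5) lie on chromosome V.

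Flavin-containing monooxygenases are enzymes of the endoplasmic reticulum that hold FAD, take electrons from NADPH and use molecular oxygen to oxidise nitrogen and sulphur atoms of small molecules. In mammals they act beside the cytochromes P450 in the first phase of xenobiotic metabolism, and unlike the P450s they do not need a separate reductase. In C. elegans the best studied member is fmo-2, which is known to be switched on by hypoxia through HIF-1, by dietary restriction and by Staphylococcus aureus, and which has been tied to lifespan and to tryptophan and one-carbon metabolism. fmo-4 is known for a role in osmoregulation and in the longevity pathway of fmo-2.

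The series compared nematodes of the N2 wild type on agar that held both organophosphates, chlorpyrifos (CPF) at 0.5 mg/L and diazinon (DZN) at 1 mg/L, with nematodes on agar that held only the solvent acetone. Both populations were kept at 24 °C on Escherichia coli OP50 and were harvested whole. Organophosphates of this kind inhibit acetylcholinesterase after they have been oxidised to their oxons. RNA of a treated and of a control sample was hybridised on the same 2-colour array, with the mixture in Cy5 on 3 arrays and in Cy3 on 3 others, and per the study's methods each sample pooled the nematodes of several dishes. The labels give the stage as L3/L4 at 72 h of age in one place and as L3 in another, and the methods give late L3 after a shorter time, so the age at harvest was not settled.

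The arrays had 44.1% to 58.1% of C. elegans spots well above background, which here means a foreground above the local background median plus 2 of its standard deviations. The array with the mixture in Cy5, replicate 3, stood apart from the rest: its ratios over all features correlated with those of the other arrays at a mean r of 0.28, against 0.46 to 0.53 for the other 5 arrays. The image headers named 6 control extracts and 5 mixture extracts, since replicate 2 in Cy5 and replicate 1 in Cy3 carried the same mixture extract. Replicates 1 and 2 in Cy5 were on slides of an earlier number series and the other 4 arrays on slides of a later one. Of the 6 markers listed for germ line and oocyte, 5 were lower in the mixture at an adjusted p under 0.05 (limma), beside 7.13% of all features. Among them were rme-2 (the yolk receptor, log2 ratio -1.81) and vit-2 (a yolk protein, -1.45), genes known from the adult hermaphrodite. vit-2 was listed there as a yolk gene, although it is made in the intestine. Levels in whole nematodes cannot separate fewer cells of a type from less RNA per cell.

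Of the 5 fmo genes, 3 were higher in the mixture and none was lower at an adjusted p under 0.05 (limma with a dye term, Benjamini-Hochberg over all features). None was lower at an unadjusted p under 0.05 or in the methods' linear model either. Over all features, 13.9% passed that test, with 6.74% higher and 7.13% lower. fmo-5 rose on every array, fmo-1 rose on 5 of 6 arrays, and fmo-2 rose on average, with an increase that was seen on the arrays with the mixture in Cy3. For fmo-3 and fmo-4 no difference passed the test. The median log2 ratio of the 5 genes was 0.89, and that of all features was 0.00.

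**Figure D1:**
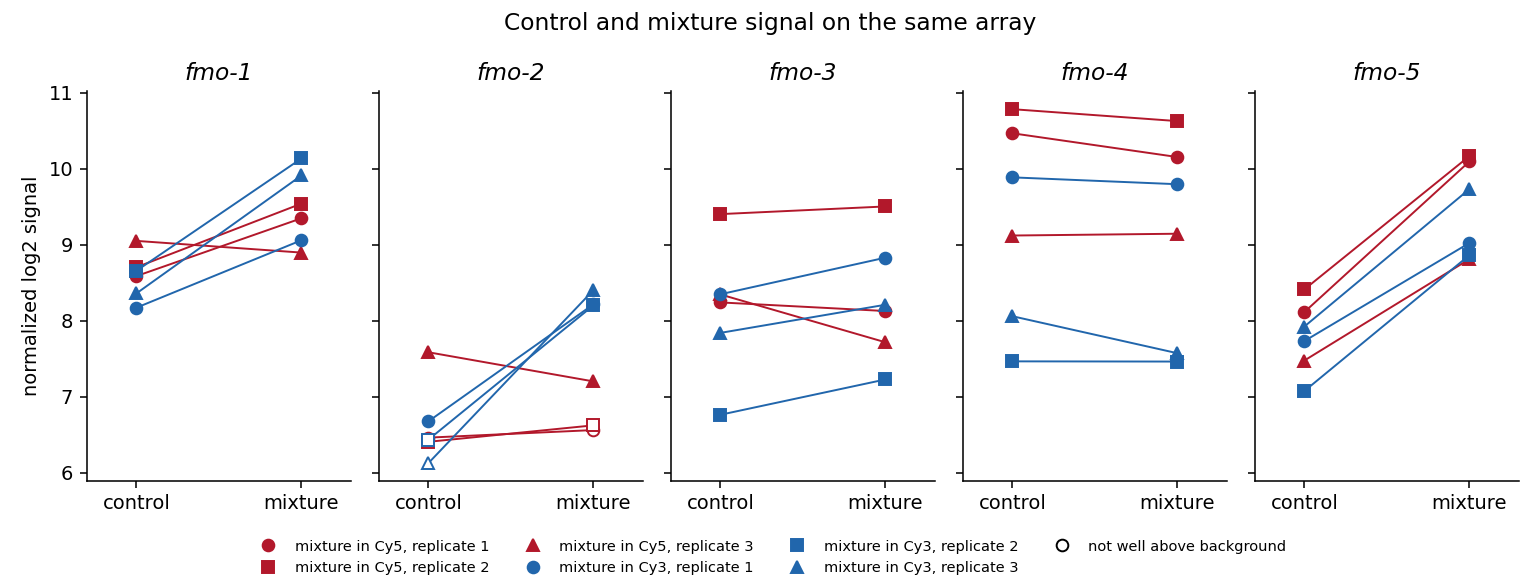
Normalized log2 signal (vertical axis) of each fmo gene in the control and the mixture channel of the same array, joined by a line; red marks arrays with the mixture in Cy5, blue those with the mixture in Cy3, shapes mark replicates 1 to 3, and open symbols were not well above background. All 6 lines of fmo-5 go up, 5 of 6 lines of fmo-1 go up, the 3 blue lines of fmo-2 are steep while its red ones are nearly flat, and the lines of fmo-4 are flat at very different heights; heights are not comparable between genes.

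fmo-5 was the most strongly raised member. Its log2 ratio of mixture over control was 1.98, 1.76 and 1.34 on the arrays with the mixture in Cy5 (replicates 1 to 3) and 1.29, 1.79 and 1.81 on those with the mixture in Cy3. The mixture was higher on 6 of 6 arrays, as for 8.76% of all features (17.4% had the same sign on all 6), and both orientations gave like values. The normalized log2 signal ran from 7.07 to 8.41 in the control and from 8.81 to 10.17 in the mixture, so that the groups did not overlap. Every mixture signal lay above every control signal for 0.658% of all features. Both channels were well above background on all 6 arrays. The mean log2 ratio was 1.66 ± 0.28 (SD, n = 6 arrays), which is a 3.16-fold difference with a 95% interval of 2.64 to 3.79-fold (adjusted p = 0.000341, limma). By size it ranked 50 from the top among the 18999 features, and by p it ranked 37. The exact sign-flip permutation test over the 6 arrays gave p = 0.03125 (two-sided, unadjusted), the smallest value that 6 arrays allow.

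The difference of fmo-5 was also seen within technical batches. On the 4 later slides alone the log2 ratio was 1.48 (adjusted p = 0.00252), and within the 3 arrays that were scanned on the same day, 1 with the mixture in Cy5 and 2 with it in Cy3, it was 1.89 (adjusted p = 0.000179). Both sets held a lone array in Cy5, so that their p-values took no spread from that orientation. The earlier slide series held 2 arrays of a single orientation, which had a mean log2 ratio of 1.87. Leaving out any array left the log2 ratio between 1.59 and 1.75.

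**Figure D2:**
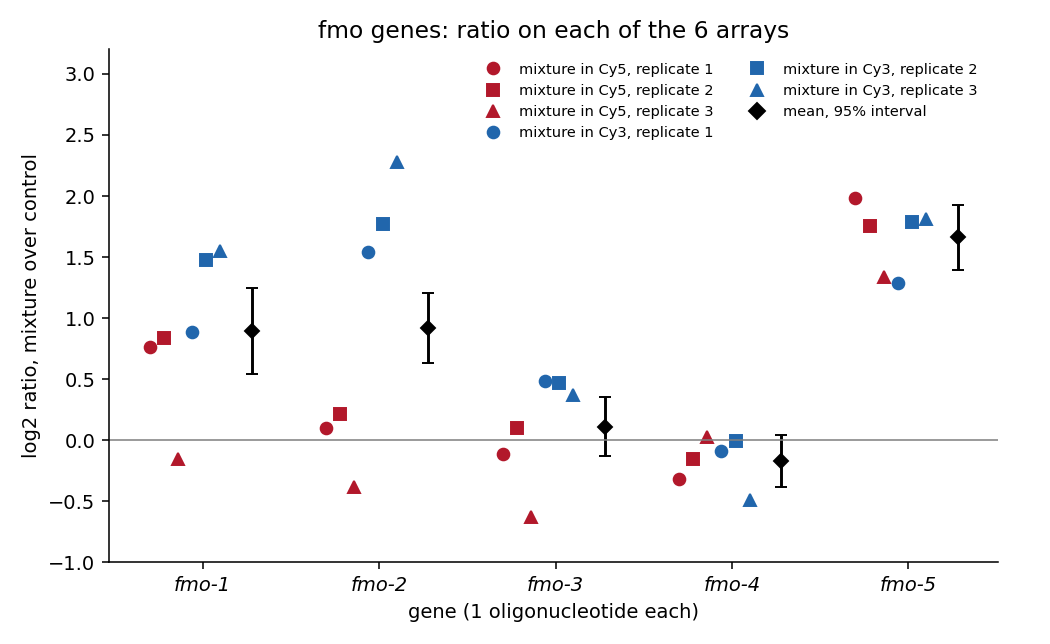
Log2 ratio of mixture over control (vertical axis) for each fmo gene on each of the 6 arrays, with the mean and its 95% interval from the limma fit with a dye term as a black diamond. All points of fmo-5 lie between 1.29 and 1.98, those of fmo-2 split by orientation into -0.38 to 0.22 and 1.54 to 2.28, and the array with the mixture in Cy5, replicate 3, is the lowest point of fmo-1, fmo-2 and fmo-3.

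fmo-1 was higher in the mixture by a smaller and less even amount. The log2 ratio was 0.76, 0.84 and -0.15 with the mixture in Cy5 and 0.89, 1.48 and 1.55 with the mixture in Cy3. The single value below 0 came from the array that stood apart in the whole data set. Both channels were well above background on all 6 arrays, and the normalized log2 signal ran from 8.17 to 9.05 in the control and from 8.90 to 10.14 in the mixture, with a small overlap of the groups. The mean log2 ratio was 0.89 ± 0.62 (SD, n = 6 arrays), a 1.86-fold difference with a 95% interval of 1.45 to 2.38-fold (adjusted p = 0.0129, limma).

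The call of fmo-1 rested on few arrays. The adjusted p was 0.0597 without the mixture in Cy3, replicate 2, it was 0.0664 without the mixture in Cy3, replicate 3, and it was 0.000618 without the mixture in Cy5, replicate 3. Within the later slide series the log2 ratio was 0.58 and did not pass, and within the shared scan day it was 1.14. Both sets held a lone array with the mixture in Cy5, at -0.15 and 0.76. The shared scan day was chosen after seeing the data. The 2 arrays of the earlier series had a mean of 0.80. The exact sign-flip permutation test gave p = 0.0625.

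fmo-2, the member induced by hypoxia, dietary restriction and pathogens, was a dim spot. With the mixture in Cy5 its log2 ratio was 0.10, 0.22 and -0.38, and with the mixture in Cy3 it was 1.54, 1.77 and 2.28. The orientations did not overlap, with means of -0.02 ± 0.32 (SD, n = 3) and 1.86 ± 0.38 (SD, n = 3). Their difference was 1.88, with an adjusted p of 0.222 for the dye term of the same limma fit and an exact permutation p of 0.10, the smallest that 3 against 3 arrays allow. Over all features, 0.0211% had an adjusted dye p under 0.05. The dye and mixture coefficients of fmo-2 in that fit were of like size, at -0.94 and 0.92. Before adjustment the dye term had the smaller p, so the adjusted p-values do not rank the strength of these effects. The mean log2 ratio over both orientations was 0.92 ± 1.08 (SD, n = 6; adjusted p = 0.00602, limma). No fold is given, since the control channel was well above background on only 2 of 6 arrays and the ratio moved with the background treatment. That call needed the dye term, since the fit without it gave the same log2 ratio with an adjusted p of 0.118.

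The scanner intensities of the fmo-2 spot show where its signal stood above its surroundings. With the mixture in Cy3 the mixture channel read 351, 338 and 392, against local backgrounds of 143, 146 and 139, and was well above background on all 3 arrays. The control channel of the same spots read 193, 175 and 159, and was well above background on 1 of the 3. On replicates 1 and 2 with the mixture in Cy5, the mixture channel read 181 and 187 and the control channel 170 and 172, and neither channel was well above background on either array. On replicate 3 with the mixture in Cy5 both channels were, with 243 for the mixture and 310 for the control.

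Over all arrays the mixture channel of fmo-2 was thus well above background on 4 of 6 arrays and the control channel on 2. On the 2 arrays where both channels passed, the ratios had opposite signs, at -0.38 and 1.54. Replicate 2 in Cy5 and replicate 1 in Cy3 carried the same mixture extract and gave 0.22 and 1.54, the first on an earlier slide with neither channel above background and the second on a later slide with both above it. The part of the dye, the slide series and the dimness of the spot in this split was not tested. Within the later slide series, which held 1 array with the mixture in Cy5 and 3 with it in Cy3, the log2 ratio was 0.74 (adjusted p = 0.0432), and within the shared scan day it was 1.06 (adjusted p = 0.00274), the latter from a lone array in Cy5 at 0.10, with neither channel above background, and 2 in Cy3 with a mean of 2.02. With plain background subtraction it was 1.86 (adjusted p = 0.0652), and with no background correction it was 0.58 (adjusted p = 0.0200).

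**Figure D3:**
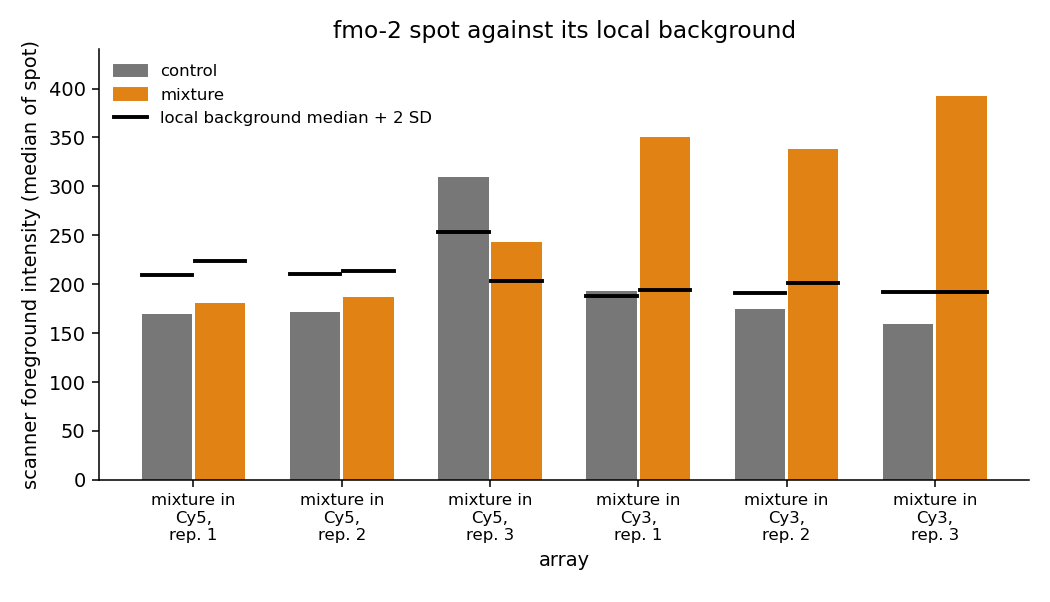
Median foreground intensity of the fmo-2 spot (vertical axis, from 0) in the control (grey) and mixture (orange) channel of each array, with a black line at the local background median plus 2 SD. The mixture bars of the 3 arrays with the mixture in Cy3 stand at 351, 338 and 392, well over their lines, while no bar of the first 2 arrays reaches its line.

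fmo-3 gave no difference that passed the test. Its log2 ratio was -0.11, 0.10 and -0.63 with the mixture in Cy5 and 0.48, 0.47 and 0.37 with the mixture in Cy3, and the orientations did not overlap. The mean was 0.11 ± 0.43 (SD, n = 6), with a 95% interval from -0.13 to 0.35 (adjusted p = 0.556, limma). The difference between orientations was 0.65 (adjusted p = 0.554 for the dye term, exact permutation p = 0.10). The unadjusted dye p was under 0.05 for 3 of the 5 fmo genes, beside 7.6% of all features. Within the later slide series the log2 ratio was -0.10 (adjusted p = 0.744), and centring arrays on their median, without loess, gave -0.11 (adjusted p = 0.345), so that the sign of fmo-3 was not fixed by these data. Both channels were well above background on all 6 arrays.

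fmo-4, the osmoregulation gene of the family, showed ratios close to 0. They were -0.31, -0.16 and 0.02 with the mixture in Cy5 and -0.09, 0.00 and -0.49 with the mixture in Cy3, which is lower in the mixture on 5 of 6 arrays. The mean was -0.17 ± 0.20 (SD, n = 6), with a 95% interval of 0.766 to 1.03-fold (adjusted p = 0.277, limma). Median centring gave -0.42 with an adjusted p of 0.0401, a setting under which 3439 of 4118 calls over all features were lower, against 1355 of 2636 as reported. Within the later slide series the log2 ratio was -0.08 (adjusted p = 0.828), and within the shared scan day it was -0.28 (adjusted p = 0.271).

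What set fmo-4 apart was its level from array to array, which moved in both channels together. Its control log2 signal was 10.47, 10.78 and 9.12 on the arrays with the mixture in Cy5 and 9.89, 7.47 and 8.06 on those with the mixture in Cy3. Its mixture log2 signal was 10.15, 10.63 and 9.15 on the first and 9.80, 7.46 and 7.57 on the second. Both earlier slides were highest and replicates 2 and 3 in Cy3 were lowest, in control and mixture alike. The control signal thus spanned 9.98-fold between arrays and the mixture signal 8.97-fold. The SD of the mean of both channels over the 6 arrays was 1.33 on the log2 scale, above that of 98.4% of the 6775 features well above background in both channels on all arrays, for which the median was 0.45.

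The other members varied less in level. The same SD was 0.80 for fmo-3, 0.54 for fmo-5, 0.44 for fmo-2 and 0.26 for fmo-1. For fmo-3, fmo-4 and fmo-5 alike, replicate 2 in Cy5 had the highest level and replicate 2 in Cy3 the lowest. The features whose levels moved most like those of fmo-4, by root mean square difference of centred levels over the 6 arrays, were snx-14 (0.10), klc-2 (0.21) and emb-8 (0.22), a description that rests on 6 arrays only and was chosen after the values were seen.

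The ratios of the members were also set against each other on the same array. Of 10 pairs, 5 kept the same order on all 6 arrays: fmo-5 over fmo-1 by 0.77, over fmo-3 by 1.55 and over fmo-4 by 1.83, and fmo-1 over fmo-3 by 0.78 and fmo-2 over fmo-3 by 0.81 on the log2 scale. Each of these had an exact sign-flip permutation p of 0.03125, the smallest possible, and 0.0625 after Benjamini-Hochberg adjustment over the 10 pairs, so none passed. The differences that involve fmo-2 rest on a control channel above background on 2 of 6 arrays and are no measured sizes. fmo-1 and fmo-2 differed by a mean of -0.03 ± 0.62 (SD, n = 6), with each of them the higher on 3 arrays (exact permutation p = 0.875).

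Features with ratios most like those of a member were sought among 6654 named features well above background in both channels on all arrays. Those nearest to fmo-5 were ugt-25 (a UDP-glucuronosyltransferase gene, mean log2 ratio 1.63), alh-5 (an aldehyde dehydrogenase gene, 1.74) and dhs-20 (a short-chain dehydrogenase gene, 1.74), at root mean square differences of 0.23, 0.27 and 0.30 over the 6 arrays. Those nearest to fmo-1 were C32F10.4, ZC443.4 and C08F11.13, at 0.19, 0.24 and 0.27. Those nearest to fmo-3 were alh-1, pcp-4 and hxk-3, and those nearest to fmo-4 were dpf-3, Y54G2A.21 and ddl-1, with differences of 0.12 or less. fmo-2 was left out because its control channel was well above background on fewer than 3 arrays.

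Flavin-containing monooxygenases draw their electrons from NADPH, and 12 genes of NADPH supply and microsomal electron transfer were measured. Of these, 2 were higher and none was lower, which is 16.7% called beside 13.9% of all features. At an unadjusted p under 0.05 the counts were 5 and 0. Both called genes belong to electron transfer, and no gene of NADPH supply passed after adjustment. As said above, flavin-containing monooxygenases do not need a separate reductase. cytb-5.1, which encodes a cytochrome b5, rose on 6 of 6 arrays by 1.45 ± 0.25 (SD, n = 6; adjusted p = 0.000248, limma). emb-8, which encodes the NADPH-cytochrome P450 reductase, rose on 6 of 6 arrays by 0.55 ± 0.22 (adjusted p = 0.0101). gspd-1, the glucose-6-phosphate dehydrogenase that opens the pentose phosphate pathway, was at -0.23 ± 0.45 (adjusted p = 0.383), and idh-1, a cytosolic NADP-dependent isocitrate dehydrogenase, was at 0.24 ± 0.26 (adjusted p = 0.0877), both log2 ratios. The list's median was 0.20 as reported and -0.10 with median centring. Neither of the 2 measured riboflavin and FAD supply genes passed the test, also unadjusted, and flad-1, the FAD synthase, was at 0.02 ± 0.21.

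Of 11 reported regulators of fmo-2, 3 were higher and 1 was lower, beside 6.74% higher and 7.13% lower of all features. pha-4, the FoxA factor needed for longevity under dietary restriction, rose on 6 of 6 arrays (0.67 ± 0.21, adjusted p = 0.00675, limma), as did the kinase gene hpk-1 (0.44 ± 0.15, adjusted p = 0.0174). hif-1, the hypoxia-inducible factor, had a mean of 0.49 ± 0.73 (adjusted p = 0.0290), yet its log2 ratio was -0.13, -0.04 and -0.18 with the mixture in Cy5 and 0.93, 1.60 and 0.79 with the mixture in Cy3. hif-1 and fmo-2 thus both had higher ratios with the mixture in Cy3, and orientation was tied to the slide series. With the mixture in Cy5, fmo-2 was at -0.38 on replicate 3, and on replicates 1 and 2 neither of its channels was well above background. Over all features, 7.6% had an unadjusted dye p under 0.05 (limma). A link between the 2 genes was not tested. rhy-1, a membrane protein that holds HIF-1 activity down, fell by 0.39 ± 0.31 (adjusted p = 0.0377) and was lower on 5 of 6 arrays.

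Further regulators gave values that did not pass: 0.42 ± 0.38 for hlh-30, the TFEB factor that acts on fmo-2 in infection (adjusted p = 0.0817), 0.18 ± 0.09 for daf-16, 0.19 ± 0.31 for skn-1 and -0.13 ± 0.18 for mdt-15. With median centring, 1 of the 11 was higher and 2 were lower, and the median of the list went from 0.19 to -0.12. The probe of nhr-49 was not matched and that gene was not analysed here.

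The genes that accompany fmo-2 in its known responses did not move one way. Of 8 hypoxia-responsive targets of HIF-1, none was higher and 2 were lower, beside 6.74% higher and 7.13% lower of all features. The 2 were F22B5.4 (-0.41 ± 0.26, lower on 6 of 6 arrays, adjusted p = 0.0291, limma) and rhy-1, which is both a target and a regulator. At an unadjusted p under 0.05, 2 were higher and 4 were lower, and in the methods' linear model none passed after adjustment. nhr-57 and cysl-2, which are commonly read as HIF-1 targets, had log2 ratios of -0.22 ± 0.19 and 0.29 ± 0.41 and did not pass. With no background correction 1 of these 8 was higher and 1 was lower.

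Of 10 genes induced by Staphylococcus aureus, 4 were higher and 1 was lower, beside 6.74% higher and 7.13% lower of all features. The median of the 10 was 0.38. clec-70, a C-type lectin gene, rose by 1.83 ± 1.01 (adjusted p = 0.00454, limma), ilys-3, an invertebrate lysozyme gene, by 1.62 ± 1.41 (adjusted p = 0.0218) and cpr-1, a cysteine protease gene, by 0.81 ± 0.33 (adjusted p = 0.00420), each on 6 of 6 arrays. The control channel of clec-70 was well above background on 3 of 6 arrays and that of ilys-3 on 4, so the sizes of their differences are uncertain. The fourth was clec-71, whose control channel passed the background limit on no array and whose mixture channel passed it on 1. lys-5, a lysozyme gene, fell by 0.54 ± 0.19 on 6 of 6 arrays (adjusted p = 0.0129).

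Of 9 targets of NHR-49, a nuclear receptor of fat metabolism, 3 were higher and 1 was lower, beside 6.74% higher and 7.13% lower of all features. ech-9 rose by 1.09 ± 0.54 (adjusted p = 0.00905, limma), K05B2.4, an acyl-CoA thioesterase gene, by 1.12 ± 0.63 (adjusted p = 0.0125) and the desaturase gene fat-5 by 0.58 ± 0.18 (adjusted p = 0.0101), each on 6 of 6 arrays. The desaturase gene fat-7 was lower by a log2 ratio of -0.66 ± 0.59 (adjusted p = 0.0274), with a value of 0.42 on the array that stood apart. acs-2, an acyl-CoA synthetase gene much used as a readout of NHR-49, was at 0.38 ± 0.98 (adjusted p = 0.338).

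The metabolic pathways tied to fmo-2 were measured as well. Of 18 folate and methionine cycle genes, 2 were higher and 1 was lower, which is 16.7% called beside 13.9% of all features. dao-3, a methylenetetrahydrofolate dehydrogenase gene, rose by 0.62 ± 0.16 (adjusted p = 0.00585, limma) and metr-1, the methionine synthase gene, by 0.55 ± 0.43 (adjusted p = 0.0125), each on 6 of 6 arrays. The log2 ratio of metr-1 split by orientation. It was 0.94, 1.16 and 0.60 with the mixture in Cy5 and 0.15, 0.11 and 0.34 with the mixture in Cy3. cth-1, a cystathionine gamma-lyase gene, fell by 0.67 ± 0.28 on 6 of 6 arrays (adjusted p = 0.0117). With median centring 1 of the 18 was higher and 7 were lower. None of 7 kynurenine pathway genes passed, with log2 ratios from -0.26 for kmo-2 to 0.16 for kmo-1. At an unadjusted p under 0.05 1 of them was lower, none passed in the methods' linear model, and 2 were lower with median centring.

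**Figure D4:**
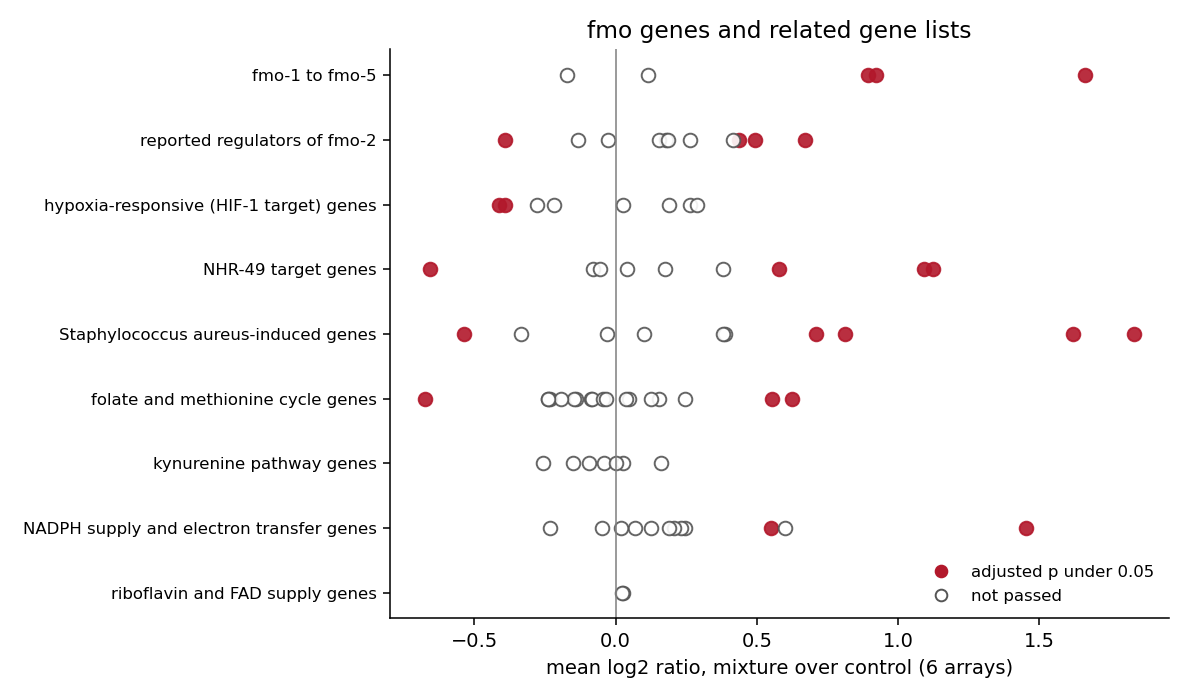
Mean log2 ratio of mixture over control over 6 arrays (horizontal axis) for each fmo gene and each measured member of the related lists (rows); red symbols had an adjusted p under 0.05 and open symbols did not. fmo-5 at 1.66, cytb-5.1 at 1.45 and the pathogen-induced clec-70 at 1.83 and ilys-3 at 1.62 lie farthest to the right (the control channel of these last 2 was well above background on 3 and 4 of 6 arrays), and the kynurenine and FAD supply rows hold no red symbol.

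The lists were read beside 13.9% of all features called in either direction, with 6.74% higher and 7.13% lower. Without the array with the mixture in Cy5, replicate 3, the share was 24.3%, with 2173 of 18999 features higher and 2436 lower. Without that array, 4 of 12 NADPH and electron transfer genes, 4 of 11 regulators and 4 of 9 NHR-49 targets were higher. So were 5 of 10 pathogen-induced genes and 3 of 18 folate and methionine genes. Of the regulators, NHR-49 targets, pathogen-induced genes and folate and methionine genes, 1 each was lower. Of 8 HIF-1 targets, 3 were lower and none was higher. All 3 raised fmo genes passed without that array, and fmo-3 and fmo-4 did not (adjusted p = 0.100 and 0.171, limma).

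Markers of tissues in which such genes can be expressed moved as follows. Of 5 intestinal markers, ges-1 (0.55) and asp-1 (0.42) were higher and none was lower, also unadjusted. The yolk gene vit-2 (-1.45), made in the intestine, was not among these 5. The summed signal of the 5 ran from 37379 to 67136 in the mixture and from 29580 to 59280 in the control. On every array the mixture sum was above the control sum of that array. Neither ges-1 nor asp-1 passed with median centring. Of 6 hypodermal markers, the collagen genes rol-6 (0.70) and dpy-7 (0.70) were higher and the adult collagen gene col-19 (-1.40) was lower. The summed signal of the 6 ran from 26959 to 61901 in the mixture and from 24650 to 47975 in the control. On every array the mixture sum was again above the control sum. Of 5 excretory cell markers vha-5 (0.41) passed as reported, but none of the 5 did with median centring, print-tip loess or no background correction, of 4 muscle markers myo-3 (0.85) passed, and of 3 sperm markers ssp-10 (-0.44) and spe-11 (-0.86) were lower. The summed signal of the 6 markers listed for germ line and oocyte, vit-2 among them, ran from 24307 to 69669 in the mixture and from 54117 to 89166 in the control. On every array their mixture sum was below the control sum of that array. The sum rests mostly on its brightest members, pgl-1 and vit-2, with mean control log2 signals of 15.24 and 14.47. The log2 ratio of pgl-1 was -0.22 and did not pass, while that of vit-2, made in the intestine, was -1.45. The part of these tissues and of the stage of the nematodes in the fmo results was not tested.

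**Figure D5:**
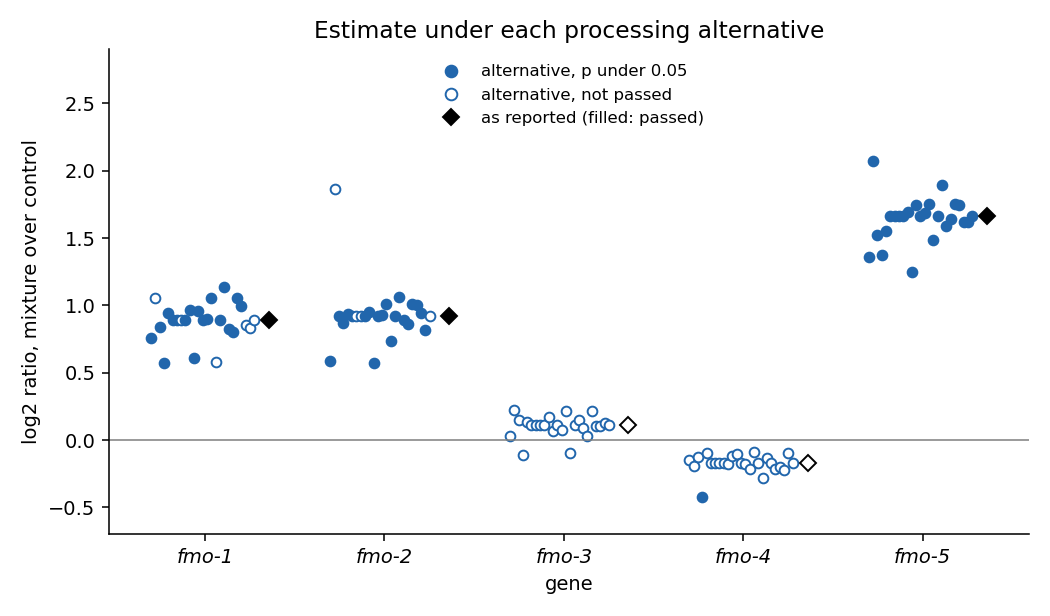
Log2 ratio of mixture over control (vertical axis) of each fmo gene under each processing alternative (blue, filled where p was under 0.05) and as reported (black diamond). The p was adjusted over all features, except in the exact sign-flip permutation test. fmo-5 stays between 1.25 and 2.07 and is filled throughout, fmo-1 and fmo-2 stay above 0 with some open symbols, and fmo-3 lies on both sides of 0.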

How the data were processed

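The 6 arrays compared nematodes on the CPF and DZN mixture with solvent controls in a dye swap. For each spot, the deposited scanner output gives intensity (foreground and local background), the percent of saturated pixels per the file headers, and a flag code of unstated meaning. No fmo spot was saturated. The deposited value table holds the authors' log2 ratios after loess and Aquantile normalization in limma 3.2.3 and removal of outlying values. Its direction was mixture over control on every array by correlation with the scanner ratios, and its background correction is unknown. It served as an alternative.

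Foreground medians were corrected by normexp (offset 50) and normalized by loess and Aquantile in limma 3.58.1 (R 4.3.3). For a gene with several probes the brightest was used. Of 22490 oligonucleotides, 21380 were named through the platform annotation and RefSeq tables. lmFit and eBayes were run over 18999 features with a dye effect, and p-values were adjusted by Benjamini-Hochberg (threshold 0.05). The scripts were tested on simulated data. The number of arrays limits the precision. With the dye effect fitted, the limma p-values measure the spread between arrays within each orientation, moderated by eBayes over all features. The difference between orientations is not part of that spread. For fmo-2 the SD over the arrays was 1.08, while the limma standard error was 0.12. Its limma interval ran from 0.64 to 1.20, and no array had a ratio within it. Replicates were described by the methods as independent samples, yet the image headers named 5 mixture extracts for the 6 arrays. With the shared mixture extract averaged, log2 ratios were 0.90 for fmo-1, 0.93 for fmo-2 and 1.69 for fmo-5. Their adjusted p-values were then 0.0178, 0.0102 and 0.00148 (limma).

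The members, the lists and the tests were chosen with earlier results of these data known. From each list, up to 4 members with the smallest p were named, with others singled out by role. The alternatives changed the background correction, foreground, normalization, filter, dye term, model, weights, flags, probes, batches and arrays.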

Additional observations from a re-analysis of the deposited data

Results flagged for a closer look

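The ratios of 3 fmo genes differed between the orientations of the dye swap. The log2 ratio was higher with the mixture in Cy3 than with the mixture in Cy5 by 0.83 for fmo-1 (adjusted p = 0.588), by 1.88 for fmo-2 (adjusted p = 0.222) and by 0.65 for fmo-3 (adjusted p = 0.554). They were picked out because the dye term of the limma fit had an unadjusted p under 0.05, as for 7.6% of all features, and none passed adjustment over all features. The orientation was tied to the slide series, since both earlier slides had the mixture in Cy5. Within the later series, the lone array with the mixture in Cy5 gave -0.15, -0.38 and -0.63 for fmo-1, fmo-2 and fmo-3, and the 3 with it in Cy3 had means of 1.31, 1.86 and 0.44. Within the shared scan day the array in Cy5 gave 0.76, 0.10 and -0.11, and the 2 in Cy3 had means of 1.52, 2.02 and 0.42. For fmo-4 and fmo-5 the difference was -0.04 and -0.06 (adjusted p = 0.975 and 0.972). The cause was not tested.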

How the results depend on the processing

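The fmo-5 call and its direction held under all 25 alternatives run (log2 ratio 1.25 to 2.07). Of these, the slide series as a block is by its construction the same as leaving out the mixture in Cy5, replicate 3. The exact sign-flip permutation test was read unadjusted, unlike the others. Its p of 0.03125 for fmo-5 is reached by any feature with the same sign on all 6 arrays, which 17.4% had. fmo-1 stayed positive in 25, with a call in 19, and fmo-2 stayed positive in 24, with a call in 20. fmo-1 was not called with plain background subtraction (1.05, adjusted p = 0.0766), in the methods' linear model (0.89, adjusted p = 0.131), within the later slide series (0.58, adjusted p = 0.0812), without the mixture in Cy3, replicate 2 or 3, or in the exact sign-flip permutation test (0.89, p = 0.0625). fmo-2 was not called with plain subtraction (1.86, adjusted p = 0.0652), without the dye effect (0.92, adjusted p = 0.118), in the methods' model (0.92, adjusted p = 0.288) or in the exact permutation test (0.92, p = 0.156). fmo-3 turned negative with median centring (-0.11) and within the later series (-0.10), and fmo-4 was called only with median centring (-0.42, adjusted p = 0.0401). The count of fmo genes called was 3 as reported, and 1 with plain subtraction and in the methods' model, where fmo-5 remained; in that model 1 gene had an unadjusted p under 0.01 (1727 features). Leaving out each array gave 2 to 3 called members, and log2 ratios of 0.81 to 1.05 for fmo-1, 0.82 to 1.01 for fmo-2, 0.03 to 0.22 for fmo-3, -0.22 to -0.10 for fmo-4 and 1.59 to 1.75 for fmo-5.

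The count over all features was 2636 of 18999 as reported (1281 higher, 1355 lower), with as many features tested unless stated. It was 189 of 16014 with plain subtraction (150 higher, 39 lower), 4118 with median centring (679 higher, 3439 lower), 306 in the methods' model (217 higher, 89 lower), 950 with the replicate block, 4166 with array weights, 1622 of 6707 with spots of flag 3 only, a higher share, 4609 with the slide series as a block (no separate check, as above), 891 within the later series, and 535 to 4609 on leaving out each array (535 without the mixture in Cy3, replicate 3, and 4609 without the mixture in Cy5, replicate 3). Spots of the most common flag were nearly all below background, gave 1 call among 6473 features and held too few fmo spots for an estimate. Replicate numbers did not pair the arrays (r of deviations from -0.23 to -0.01 over features), and the replicate block changed no fmo call. Spots of flag 3 only and the shared scan day alone were chosen after seeing the data. Array number and the dimness of fmo-2 limit these values.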
